A study of Mus musculus with 10 samples.

Results

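The transcripts described here are 9 complement genes, namely C1ra, C1s1, Serping1, C4b, C2, C3, Cfb, Cd55 and Clu, in primary smooth muscle cells of the mouse aorta. They were found among the 54446 genes of the deposited table by matching each Ensembl ID, without its version, to these symbols in GENCODE M21, and all 9 were matched. RNA came from cells of mice with the Kit genotype W/Wv (labelled WWv, 5 libraries) and of wild type mice (labelled WT, 5 libraries). The labels name 5 mice per genotype, cells freed with collagenase and grown to passage 2, and give neither age, sex nor strain. Kit encodes c-Kit, the receptor for stem cell factor, and the W and Wv alleles impair the receptor in every cell of the animal, so that no cell type is singled out. The study asked which transcripts differ when vascular smooth muscle loses c-Kit signalling.

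Complement is a cascade of blood and tissue proteins that marks and attacks foreign or damaged surfaces. In the classical route the proteases C1r and C1s, carried by the recognition protein C1q, cleave C4 and C2, and the cleaved parts form an enzyme that cleaves C3. In the alternative route factor B, the product of Cfb, takes the place of C2. C1 inhibitor, decay-accelerating factor and clusterin, encoded by Serping1, Cd55 and Clu, restrain the cascade at its start, at the C3-cleaving enzymes and at its end. The liver makes most of the circulating proteins, and fibroblasts, smooth muscle cells and macrophages make some of them locally.

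All 9 genes had enough counts to be tested, and 7 of them fell in WWv cells, against 15.4% of all tested genes that were called lower. The 7 were C1ra, C1s1, Serping1, C2, C3, Cd55 and Clu, and 0 of the 9 rose (12.8% of all tested genes were called higher). The median log2 fold change of the 9 genes was -0.98, against -0.01 over all 15181 tested genes. C4b and Cfb had similar fitted changes but did not pass the threshold. A call here means an adjusted p under 0.05 in edgeR's quasi-likelihood test over all tested genes. Calls in either direction made up 28.2% of all tested genes. In 0 of the 9 genes did the groups separate completely, while of all tested genes 7.84% were lower and 8.03% higher without overlap (15.9% in either direction). WT replicate 2 was the lowest WT library in 8 of the 9 genes and lay below every WWv library in 4. Without it all 9 genes were called lower (23.5% of all genes were then called lower), and in 7 of the 9 the groups did not overlap (18.6% of all genes were then lower without overlap). Leaving out another library gave fewer or as many: the count was 2 without WWv replicate 2, 3 without WWv replicate 3 or WT replicates 1, 4 or 5, 4 without WWv replicate 4 or WT replicate 3, 5 without WWv replicate 1 and 7 without WWv replicate 5. In those fits 1721 to 2304 of all genes were called lower. Limma-voom called 4 of the 9 lower, and 2153 of all 15181 tested genes. With a cell cycle score in the model 0 were called, and 6 of the 9 log2 fold changes were above 0. Of all 15181 tested genes 464 were lower in that fit. The score was 5.52 to 5.73 in WWv, 5.68 in WT replicate 2 and 4.95 to 5.12 in the other WT libraries. Apart from WT replicate 2 it thus separated the groups, and that fit leans on this library. In bulk RNA, fewer cells of a type and less RNA per cell cannot be told apart.

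Libraries held 42040255 to 53863661 counts, of which the 9 genes took 0.0233 to 0.0339% in WWv and 0.0226 to 0.0876% in WT. Kit, the mutated gene, stood at 2.00 ± 0.764 CPM (counts scaled to library size) in WWv and at 4.12 ± 0.629 CPM in WT (SD, n = 5 each), without overlap of the groups. WT replicate 2 grouped with the WWv libraries on the leading principal component, which held 52.5% of the variance. On the next component, with 17.3% of the variance, it lay apart from all other libraries, at 42.9 against -23.1 to 20.2 in WWv. All 8 smooth muscle markers, among them Acta2 and Myh11, were detected in every library. Of these 6 rose in WWv, where 12.8% of all tested genes were called higher. The p-values treat libraries as separate samples, and the labels do not state that each library is a separate mouse.

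Promoters, the stretches where transcription is controlled, are shown for C3, C1s1 and Cd55, the 3 called genes in the RefSeq table whose start is the same in GENCODE, with matches to 4 short motifs of factors that respond to cytokines, and to the TATA box, in capitals. Each sequence covers the 250 bases before the start site, 5′ to 3′ on the gene's strand, from RefSeq on GRCm38.p6. The C3 window is chr17:57228137-57228386, the C1s1 window chr6:124542360-124542609 and the Cd55 window chr1:130462745-130462994, all on the minus strand.
C3: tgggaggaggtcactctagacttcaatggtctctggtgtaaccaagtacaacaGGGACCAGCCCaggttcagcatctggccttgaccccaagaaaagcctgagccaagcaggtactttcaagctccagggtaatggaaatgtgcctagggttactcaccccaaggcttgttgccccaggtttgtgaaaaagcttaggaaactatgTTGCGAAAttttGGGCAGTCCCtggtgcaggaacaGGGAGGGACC
C1s1: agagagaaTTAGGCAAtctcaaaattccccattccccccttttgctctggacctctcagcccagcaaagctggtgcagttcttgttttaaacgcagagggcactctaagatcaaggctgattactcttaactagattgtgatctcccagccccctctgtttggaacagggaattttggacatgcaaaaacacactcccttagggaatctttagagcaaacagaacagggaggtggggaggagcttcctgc
Cd55: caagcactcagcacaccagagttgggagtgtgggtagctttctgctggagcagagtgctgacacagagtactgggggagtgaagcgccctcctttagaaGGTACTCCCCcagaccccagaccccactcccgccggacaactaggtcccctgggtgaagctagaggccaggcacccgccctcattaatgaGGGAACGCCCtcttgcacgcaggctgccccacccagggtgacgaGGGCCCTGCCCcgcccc

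The C/EBP pattern TTGCNNAA was found once before C3, at positions -45 to -38 from the start, and once before C1s1, at -242 to -235. It occurs in 9.56% of the 32851 RefSeq promoter windows of this length. The loose NF-kB pattern (GGG, any 5 bases, CC) was found 4 times before C3 and 4 times before Cd55, overlapping pairs counted apart, and it occurs in 45.8% of all windows. The STAT pattern TTCNNNGAA (7.02% of all windows), the interferon-response pattern (GAAA, any 2 bases, GAAA, 2.98%) and TATAAA (12.4%) were found in none of the 3 windows. Both strands were searched. C1ra also has a window in the table, which held 0 matches to the 5 patterns, and C1s1 has another, for a start site further into the gene, with 1 match to the loose NF-kB pattern. A match describes the letters and does not show that a factor binds.

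The proteases that open the classical route fell by less than 2-fold and with little spread among WWv libraries. C1ra, which encodes C1r (ENSMUSG00000055172.10, chromosome 6, 124512405 to 124523443, plus strand), stood at 22.3, 18.6, 18.5, 18.4 and 20.2 CPM in WWv replicates 1 to 5. In WT replicates 1 to 5 it stood at 36.3, 19.3, 32.2, 42.2 and 36.2 CPM. The 5 WWv libraries lay close together, and WT replicate 2 was the 1 WT library within their range. The difference was 1.70-fold (log2 fold change -0.76 ± 0.17 SE, edgeR adjusted p = 0.0083). C1s1, which encodes C1s (ENSMUSG00000038521.17, chromosome 6, 124530345 to 124542359, minus strand), stood at 42.9, 31.5, 34.2, 27.5 and 36.1 CPM in WWv. In WT it stood at 68.5, 31.9, 60.1, 84.8 and 75.5 CPM. Again WT replicate 2 was the 1 WT library inside the WWv range, and the difference was 1.86-fold (log2 fold change -0.90 ± 0.22, edgeR adjusted p = 0.0131). Both calls held when any one of the 10 libraries was left out, and neither held with the cell cycle score in the model (log2 fold change -0.04 for C1ra, adjusted p = 0.836, and 0.07 for C1s1, adjusted p = 0.769).

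C1r and C1s act as a pair, and their genes lie next to each other on chromosome 6. Per length, C1s1 exceeded C1ra by a ratio of 1.67 ± 0.161 in WWv and 1.81 ± 0.156 in WT (SD, n = 5 each), with ranges of 1.42 to 1.84 and 1.58 to 1.99 that overlapped. The partner genes C1qa, C1qb and C1qc, which encode C1q and are known as macrophage products, were too low to be tested. Their summed counts were 1, 0, 5, 4 and 12 in WWv replicates 1 to 5 and 55, 16, 64, 42 and 21 in WT replicates 1 to 5. Every WWv library was below every WT library in that sum, at a level of at most 0.229 CPM in WWv and 1.25 CPM in WT.

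Serping1, which encodes the inhibitor of C1r and C1s (ENSMUSG00000023224.12, chromosome 2, 84765387 to 84775444, minus strand), had the highest level per length of the 9 and fell to 0.461 of its WT level. It stood at 96.2, 105, 136, 116 and 154 CPM in WWv replicates 1 to 5. In WT replicates 1 to 5 it stood at 264, 91.1, 227, 383 and 351 CPM. WT replicate 2 was below every WWv library, and the other 4 WT libraries were above all of them. The log2 fold change was -1.12 ± 0.31 (edgeR adjusted p = 0.0222). The call was lost without WWv replicate 2, WT replicate 4 or WT replicate 5 (adjusted p = 0.053 to 0.0552, log2 fold change -1.06 to -0.94). Per length, Serping1 exceeded C1s1 by a ratio of 4.86 ± 1.15 in WWv and 5.29 ± 0.963 in WT, so the ranges of inhibitor to protease overlapped (3.02 to 5.76 and 3.85 to 6.27).

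**Figure D1:**
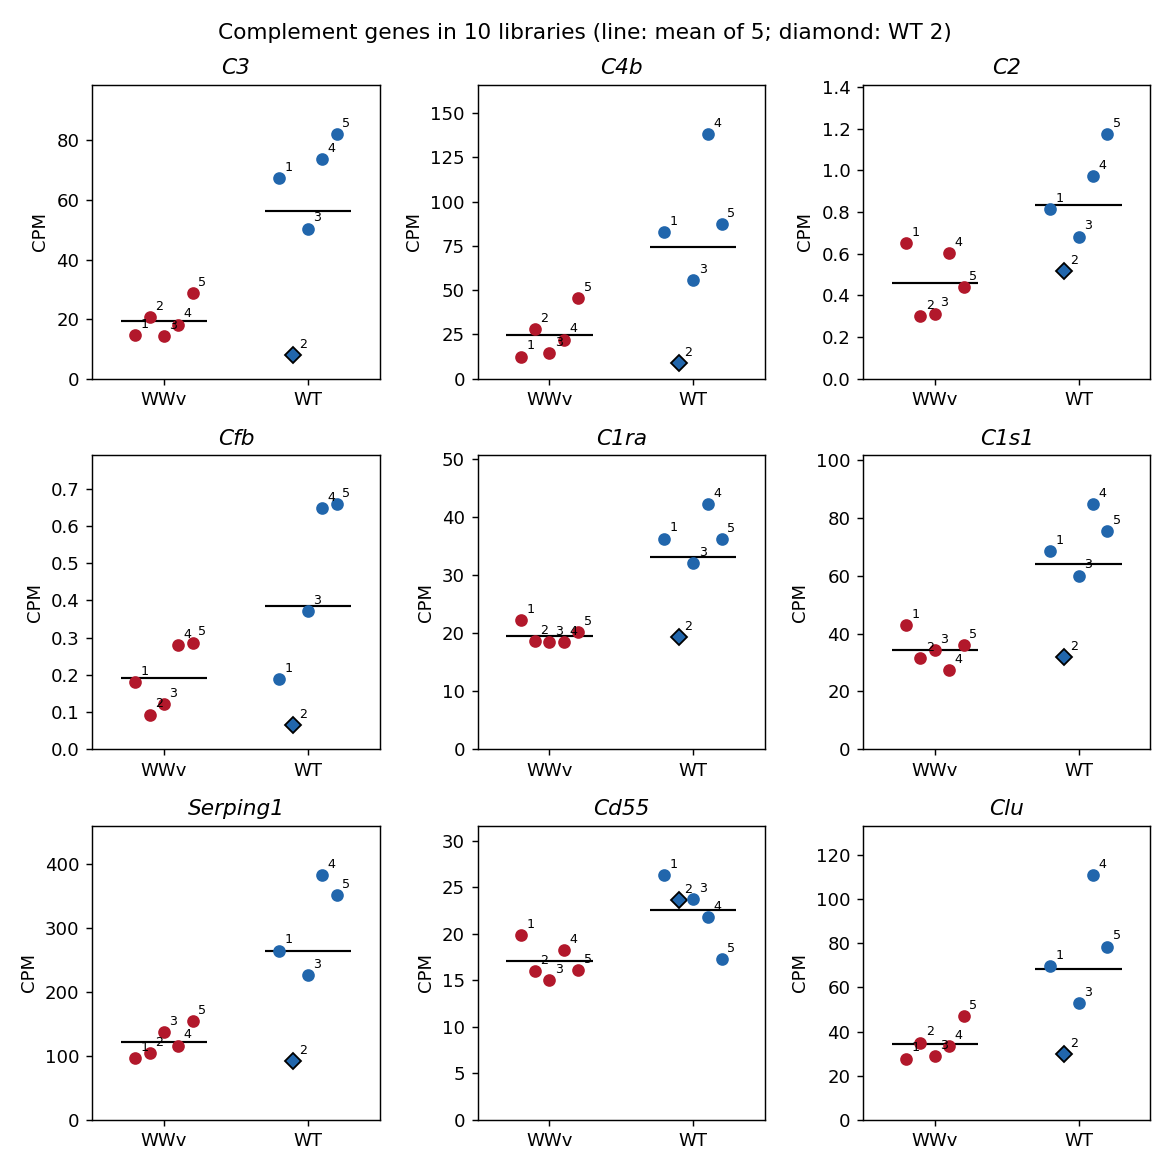
CPM of each of the 9 complement genes (vertical axes, from 0) in the WWv libraries (red, left) and the WT libraries (blue, right). Points carry the replicate number, the line is the mean of 5 libraries and the diamond is WT replicate 2, which lies within or below the WWv range in 8 panels and within the WT range for Cd55.

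C4b and C2 encode the substrates of C1s that form the classical C3-cleaving enzyme. C4b (ENSMUSG00000073418.4, chromosome 17, 34728380 to 34743882, minus strand) stood at 12.4, 28.1, 14.3, 22.0 and 45.6 CPM in WWv replicates 1 to 5. In WT replicates 1 to 5 it stood at 82.7, 8.78, 55.8, 138 and 87.2 CPM. WT replicate 2 was the lowest of all 10 libraries, and the other WT libraries were above every WWv library. The fitted difference was large, 3.04-fold, but the spread was too (log2 fold change -1.60 ± 0.58, 95% interval -2.87 to -0.34, edgeR adjusted p = 0.0586). It passed the threshold without WT replicate 2 (log2 fold change -1.89, adjusted p = 0.00182) and without WWv replicate 5 (-1.96, adjusted p = 0.0398), as well as with library size only (adjusted p = 0.0457) and in DESeq2 (adjusted p = 0.0371). C4b shares 34.6% of the 50-base words of its transcripts with the near copy C4a, so reads may have been divided between them. C4a, known as the sex-limited protein gene, was lower as well, at 0.962 ± 0.322 CPM in WWv and 2.45 ± 1.07 CPM in WT (SD, n = 5 each, log2 fold change -1.35 ± 0.36, edgeR adjusted p = 0.0187).

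C2 (ENSMUSG00000024371.14, chromosome 17, 34862604 to 34898265, minus strand) was close to the lower limit of what was tested, with 13 to 29 counts per WWv library and 24 to 51 per WT library. It stood at 0.652, 0.302, 0.313, 0.603 and 0.439 CPM in WWv replicates 1 to 5, against 0.814, 0.517, 0.682, 0.971 and 1.18 CPM in WT replicates 1 to 5. WT replicate 2 fell between the WWv values, and the other 4 WT libraries were above all of them. C2 fell by 0.84 ± 0.29 on the log2 scale, just past the threshold (edgeR adjusted p = 0.0488). The call was kept without WWv replicate 1 and without WT replicate 2 and was lost without any one of the other 8 libraries (adjusted p = 0.0535 to 0.116, log2 fold change -0.96 to -0.69). It was also lost in limma-voom (adjusted p = 0.0526) and without the low-count filter (adjusted p = 0.0767). A fusion gene of C2 and Cfb, Gm20547, covers 42.8% of the exon bases of C2 and 79.5% of those of Cfb on the same strand and is listed with 0 counts in all libraries. How reads in shared bases were counted was not given in the sources used here, so the levels of C2 and Cfb are uncertain.

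C3 encodes the protein on which all routes converge, and its fall was 2.92-fold. C3 (ENSMUSG00000024164.15, chromosome 17, 57203970 to 57228136, minus strand) stood at 14.6, 20.6, 14.4, 18.1 and 28.7 CPM in WWv replicates 1 to 5. In WT replicates 1 to 5 it stood at 67.4, 7.96, 50.4, 73.7 and 82.2 CPM. The lowest library of all was WT replicate 2, at 0.116 of the mean of the other 4 WT libraries, which in turn were above every WWv library. The log2 fold change was -1.54 ± 0.47 (edgeR adjusted p = 0.032) and, without WT replicate 2, -1.82 ± 0.20 (adjusted p = 7.7e-05). The call was also kept without WWv replicate 5 and was lost without any one of the other 8 libraries (adjusted p = 0.0548 to 0.0766, log2 fold change -1.58 to -1.37). Limma-voom (log2 fold change -1.23, adjusted p = 0.152) did not call it either. Per length, the ratio of C4b to C3 was 1.09 ± 0.263 in WWv and 1.15 ± 0.309 in WT (SD, n = 5 each), with 0.996 in WT replicate 2. The ranges of 0.771 to 1.44 and 0.958 to 1.69 overlapped and both included 1, so neither gene was consistently above the other.

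Cfb, the alternative-route counterpart of C2 and its direct neighbour (ENSMUSG00000090231.10, chromosome 17, 34856374 to 34862518, minus strand), had 4 to 15 counts per WWv library and 3 to 34 per WT library. It stood at 0.180, 0.0929, 0.120, 0.280 and 0.286 CPM in WWv replicates 1 to 5, against 0.188, 0.0647, 0.370, 0.648 and 0.658 CPM in WT replicates 1 to 5. WT replicates 1 and 2 were both within or below the WWv range. The log2 fold change of -0.98 ± 0.55 did not pass (edgeR adjusted p = 0.202), and its 95% interval ran from -2.18 to 0.23. It passed without WT replicate 2 (log2 fold change -1.24, adjusted p = 0.0349).

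Cd55, which encodes the membrane protein that breaks up the C3-cleaving enzymes (ENSMUSG00000026399.12, chromosome 1, 130439027 to 130462744, minus strand), had the smallest change and another pattern across libraries. It stood at 19.9, 16.0, 15.0, 18.2 and 16.1 CPM in WWv replicates 1 to 5, and at 26.3, 23.6, 23.7, 21.8 and 17.2 CPM in WT replicates 1 to 5. Here WT replicate 2 was within the WT range, at 1.06 of the mean of the other 4, and the WT library inside the WWv range was replicate 5. The fall was 1.32-fold (log2 fold change -0.40 ± 0.11, edgeR adjusted p = 0.0221). The call was lost without WWv replicate 2, WWv replicate 3, WT replicate 1 or WT replicate 3 (adjusted p = 0.0534 to 0.0571, log2 fold change -0.38 to -0.34). The near copy Cd55b had 43 counts in all libraries together.

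Clu, which encodes clusterin, a secreted chaperone that binds the terminal complex (ENSMUSG00000022037.15, chromosome 14, 65968483 to 65981547, plus strand), was called lower as well. It stood at 27.7, 35.0, 28.9, 33.4 and 47.2 CPM in WWv replicates 1 to 5, against 69.8, 29.9, 53.0, 111 and 78.5 CPM in WT replicates 1 to 5. WT replicate 2 was within the WWv range and the other 4 WT libraries were above it. The fall was 1.99-fold (log2 fold change -0.99 ± 0.29, edgeR adjusted p = 0.0271). The call was kept without WWv replicate 5, WT replicate 2 or WT replicate 3 and lost without any one of the other 7 (adjusted p = 0.0541 to 0.0656, log2 fold change -0.99 to -0.75), as well as in limma-voom (adjusted p = 0.0515).

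**Figure D2:**
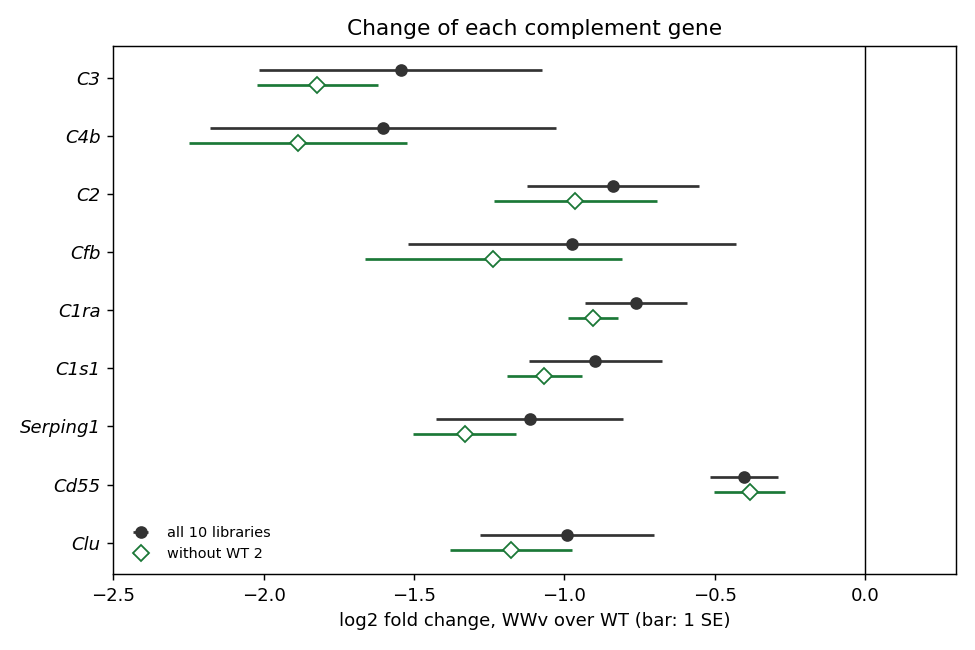
Log2 fold change of WWv over WT (horizontal axis) for each gene, with bars of 1 SE, from all 10 libraries (filled circles) and without WT replicate 2 (open diamonds). All 18 values are below 0, from -1.89 for C4b without that library to -0.38 for Cd55 without it.

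Levels between genes are compared as CPM per kilobase of exon, which corrects for transcript length. Serping1 led in both groups, at 52.2 ± 10.2 CPM per kilobase in WWv and 113 ± 49.5 in WT (SD, n = 5 each). It made up 56.8 ± 4.44% of the summed level of the 9 genes in WWv and 57.7 ± 2.79% in WT. C1s1 (11.0 and 20.5 CPM per kilobase in WWv and WT) and Clu (10.0 and 19.9) came next, and their ranges overlapped in either group. C1ra (6.57 and 11.2), C4b (4.30 and 13.1), C3 (3.75 and 11.0) and Cd55 (3.51 and 4.64) followed, with C4b below C1ra in WWv and above it in WT by mean. C2 (0.119 and 0.215) and Cfb (0.0679 and 0.137) were far below the rest. Per kilobase of coding sequence Cd55, with 1478 coding bases among 4853 exon bases, moved up to rank 4 in WWv and rank 5 in WT, and Clu moved above C1s1.

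**Figure D3:**
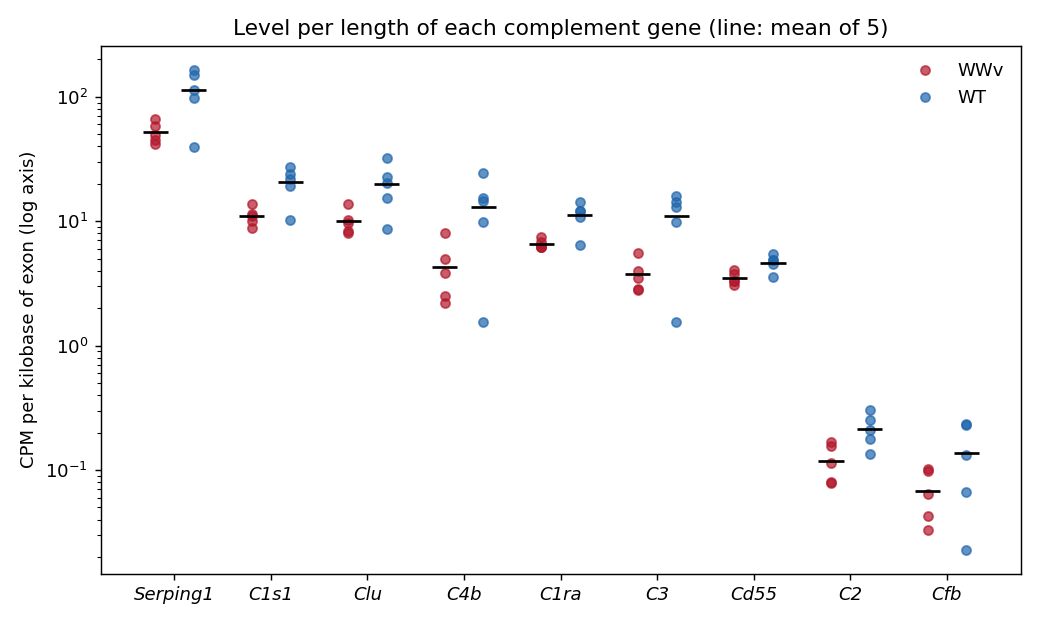
CPM per kilobase of exon (vertical log axis) of each gene in the WWv libraries (red, left of each pair) and the WT libraries (blue, right), with a line at the mean of 5. Serping1 is highest in both groups, and C2 and Cfb are at most 0.304 in every library.

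The spread within groups differed between genes. The coefficient of variation in WWv was 8.48% for C1ra, 11.5% for Cd55 and 16.6% for C1s1, against 54.5% for C4b and 46.4% for Cfb. In WT, with replicate 2 included, it ran from 15.0% for Cd55 to 69.2% for Cfb. WWv replicate 5 was the highest WWv library in 5 of the 9 genes.

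Beyond these 9 genes, 51 other complement genes were listed, of which 23 were tested. In WWv 9 of the 23 were lower (15.4% of all tested genes were) and 1 was higher (12.8% of all), with a median log2 fold change of -0.55. Among genes that start the classical and lectin routes 5 of 8 fell. They were C4a and C1s2 (log2 fold change -1.33 ± 0.37, edgeR adjusted p = 0.0223), C1rb (-0.96 ± 0.28, adjusted p = 0.0275), C1rl, a C1r-like protease (-0.55 ± 0.10, adjusted p = 0.00312), and Colec12, a collectin receptor (-0.59 ± 0.10, adjusted p = 0.00193). C1rb shares 48.0% of the 50-base words of C1ra, and C1s2 shares 21.8% of those of C1s1, so reads of these pairs may have been divided. The C1s2 call was lost without WWv replicates 2 or 4 or WT replicates 1 or 4 (adjusted p = 0.0533 to 0.0553) and in limma-voom. That of C1rb was lost without WWv replicates 2, 3 or 5 or WT replicates 1, 4 or 5 (adjusted p = 0.0534 to 0.0664) and without the low-count filter. Cfp, which encodes the properdin that stabilises the alternative C3-cleaving enzyme, fell too (-0.58 ± 0.14, adjusted p = 0.0112). The terminal genes C6, C7, C8a, C8b, C8g and C9 were not tested for want of counts. Without WT replicate 2 the lower genes numbered 15 of 25 (23.5% of all tested genes were then lower) and the higher ones 3 (22.7% of all were then higher).

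Among other inhibitors of complement 3 of 8 fell and 1 rose, against 15.4% and 12.8% of all tested genes. Csmd1, a membrane inhibitor, fell by 2.31 ± 0.40 on the log2 scale (edgeR adjusted p = 0.00252), and Cd46, a cofactor for C3 breakdown, fell by 1.13 ± 0.23 at a level under 1 CPM (adjusted p = 0.00631). Cd46 shares 14.2% of its exon bases with a gene on the opposite strand. Cd59a, whose product blocks the membrane attack complex, was the 1 that rose, at 13.5, 16.7, 13.8, 18.8 and 17.1 CPM in WWv replicates 1 to 5 against 12.3, 9.16, 10.6, 10.9 and 10.5 CPM in WT replicates 1 to 5 (log2 fold change 0.58 ± 0.11, adjusted p = 0.00349). The groups did not overlap for Cd59a. Cr1l, which encodes Crry, the broad membrane regulator of rodents, had a log2 fold change of 0.07 with a 95% interval of -0.07 to 0.21 (adjusted p = 0.408). Of the 5 tested receptor genes 0 passed, C3ar1 among them at a log2 fold change of 0.24 (adjusted p = 0.768).

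**Figure D4:**
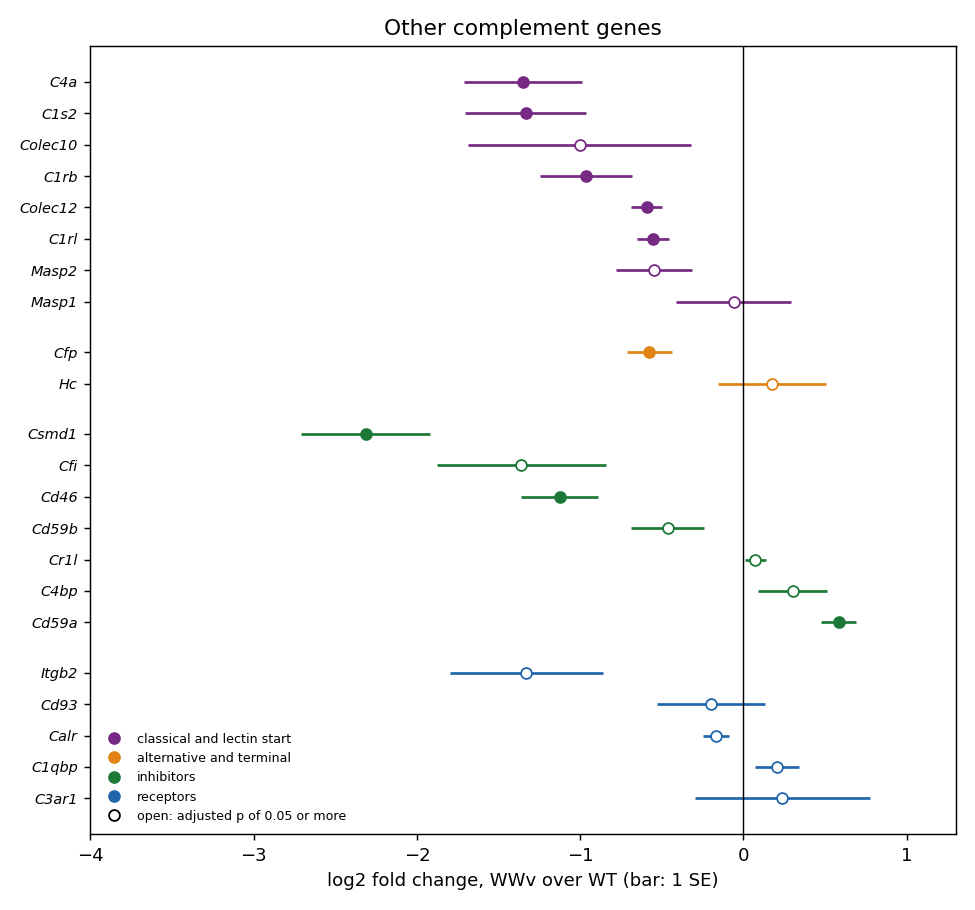
Log2 fold change of WWv over WT (horizontal axis, bars of 1 SE) for 22 of the 23 other tested complement genes, coloured by role. Filled points passed the threshold, 8 of them left of 0 and 1, Cd59a, right of it.

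Genes known to induce complement transcription, such as the receptors of interleukin 6, oncostatin M, interleukin 1 and interferons with their transcription factors, were listed as 20 genes and all were tested. In WWv 12 of them fell, against 15.4% of all tested genes, and 0 rose. Il6st, the signalling chain shared by the interleukin 6 family, stood at 654 ± 56.6 CPM in WWv and 1474 ± 286 CPM in WT (SD, n = 5 each, log2 fold change -1.17 ± 0.13, edgeR adjusted p = 0.000423). Il1r1, the interleukin 1 receptor, fell by 0.89 ± 0.09 on the log2 scale (adjusted p = 0.000343) and Osmr, the oncostatin M receptor, by 0.75 ± 0.13 (adjusted p = 0.0024). The C/EBP factor genes Cebpd and Cebpb fell by 1.19 ± 0.19 (adjusted p = 0.00188) and 1.12 ± 0.12 (adjusted p = 0.000342), although parts of both overlap genes on the opposite strand. Rela, an NF-kB subunit, had a log2 fold change of 0.00 (95% interval -0.08 to 0.08, adjusted p = 0.976). For Il6st, Il1r1, Osmr and Cebpb the groups did not overlap. Whether these genes bear on the complement transcripts was not tested.

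Markers of other cell types and of the cell cycle also differed between libraries. Of 9 fibroblast markers 5 fell in WWv and 0 rose, where 15.4% of all tested genes were lower and 12.8% higher. Lum, a fibroblast proteoglycan gene, fell by 4.02 ± 0.66 on the log2 scale (edgeR adjusted p = 0.00209), a call not made by limma-voom. The other 4 were Dpt, Dcn, Fbln1 and Pdgfra, and the Dcn call was lost without WWv replicate 2 (adjusted p = 0.0534) and in limma-voom. The summed level of the list was 571 to 849 CPM in WWv and 579.5 to 1237 CPM in WT, with the lowest WT value in replicate 2. Of 20 cell cycle genes 11 rose in WWv and 0 fell. The calls of Top2a and Ccna2 were each lost in 8 of the 10 fits that left out 1 library, those of Mcm3 and Mcm5 in 9 and that of Mcm6 in 4 (adjusted p = 0.0519 to 0.112). Calls of Ccne2 (log2 fold change 0.93, edgeR adjusted p = 0.000247), Ccne1 (0.85, adjusted p = 0.000446), Cdc6, Cdk1, Pcna and Rrm2 were kept in all 10 such fits. The summed level of the list was 1165 to 1350.2 CPM in WWv, 1350.4 CPM in WT replicate 2 and 795 to 902 CPM in the other WT libraries. Endothelial markers were highest in WT replicate 2, where their sum was 343 CPM against 94.1 to 114 CPM in the other WT libraries and 95.8 to 222 CPM in WWv. Of the 8 endothelial markers 1 passed, Erg, which was lower in WWv. Without WT replicate 2, Emcn (log2 fold change 1.23), Cdh5 (1.11), Pecam1 (0.98) and Tie1 (0.95) were called higher in WWv (edgeR adjusted p = 0.0043 to 0.0064). In that fit 22.7% of all tested genes were higher, Erg stayed lower (-1.57, adjusted p = 0.00128), and Kdr, Tek and Vwf were not called.

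Leukocyte markers were low, with sums over 10 genes of 21.8 to 26.5 CPM in WWv, 21.8 CPM in WT replicate 2 and 28.7 to 43.6 CPM in the other WT libraries, so that these 4 were above every WWv library. Of the 10 genes 7 were tested and 0 passed (28.2% of all tested genes passed), with Ptprc at most 0.505 CPM in every library. The 3 untested ones had fewer counts in WWv. Adgre1 had 2 counts over the WWv libraries and 58 over the WT libraries, Fcer1g 17 and 69, and Tyrobp 9 and 50. Mast cell markers, of interest because Kit mutants lack mast cells, summed to at most 0.0962 CPM in WWv and 0.648 CPM in WT, with Fcer1a at 0 in all libraries. When a cell cycle score (the average log2 CPM over the listed genes) was added to the model, 0 of the 9 complement genes passed. Of the 23 others 2 were lower, Masp1 (log2 fold change -1.14, edgeR adjusted p = 0.0382) and Cd93 (-1.07, adjusted p = 0.0287). Neither was called without the term (adjusted p = 0.918 and 0.682), and the others that were lower without the term lost their calls. With the term the log2 fold changes of C3 (0.85), C4b (1.04), Cfb (1.42), C1s1 (0.07), Serping1 (0.27) and Clu (0.09) were above 0 with adjusted p of 0.306 to 0.897. Those of C1ra (-0.04), C2 (-0.05) and Cd55 (-0.48, adjusted p = 0.11) were below 0. In that fit 1134 of all 15181 tested genes were called, 464 of them lower, against 4274 calls without the term. The part of cell makeup and of cell cycle in the complement result was not tested.

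**Figure D5:**
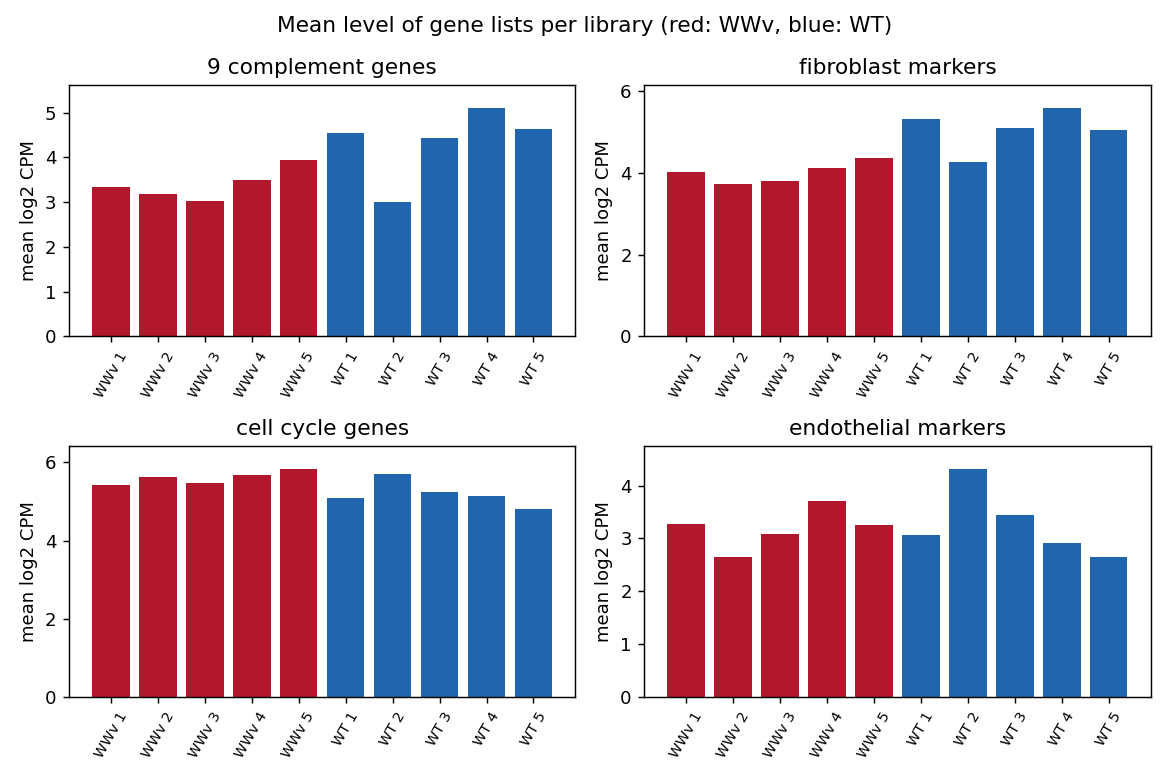
Mean log2 value (vertical axes, from 0) of the 9 complement genes, the fibroblast markers, the cell cycle genes and the endothelial markers in each WWv library (red) and WT library (blue). Counts were divided by scaled library sizes that were mostly those of another library, so the bars only approximate mean log2 CPM. By summed CPM, WT replicate 2 is the lowest of all libraries for the complement genes (213, against 237 to 349 in WWv). It is also the lowest of WT for the fibroblast markers (579.5) and the highest of all for the endothelial markers (343).

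Genes with a pattern like that of C3 over the 10 libraries were picked among 10263 genes with a mean of at least 5 CPM that are not among the 9. The measure was the root mean square difference between z-scores of log2 values. These values were not log2 CPM, since counts were divided by scaled library sizes that were mostly those of another library. The ranks are therefore uncertain, and other genes may be more like C3. Picked were Aldh1a2, a retinoic acid synthesis enzyme, Serpina3n, an acute phase serine protease inhibitor, Pcsk5, a proprotein convertase, Lbp, the lipopolysaccharide-binding protein, and Dcc, a netrin receptor. Of the 5 genes Serpina3n was called lower (log2 fold change -2.10, edgeR adjusted p = 0.0289), and the other 4 had adjusted p of 0.0592 to 0.0935. The Serpina3n call was kept without WWv replicate 5, WT replicate 2 or WT replicate 3 and lost without any one of the other 7 libraries (adjusted p = 0.0569 to 0.0697), in limma-voom and with the replicate block. By the same measure Rgs11, Vamp2, Gm15222, Mettl7a1 and Tle2 were picked as like the mean of the 9, all 5 of them called lower, Rgs11 not in limma-voom. Such picks describe likeness over the same libraries, whose group and library effects the genes share.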

How the data were processed

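The authors deposited whole-number read counts for each gene, not normalized. The submitters' processing notes name bcl2fastq 2.17, Trim Galore 0.4.3, STAR 2.5.2a and the build mm10. How reads were counted, with which strand setting and annotation, was not given in the sources used here, so genes that overlap others or have near copies are uncertain. Symbols, exon lengths and 1-based coordinates came from GENCODE M21 (GRCm38, the assembly that mm10 names), which matched 54409 of 54446 IDs without version.

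The quasi-likelihood fit of edgeR 4.0.16 (R 4.3.3) had the group as its only term and TMM factors for scaling. Genes were kept by filterByExpr (minimum count 10), and 15181 passed. P-values were two-sided and adjusted by Benjamini and Hochberg over these genes, and a gene was called at an adjusted p under 0.05. CPM were scaled with the TMM factors. Intervals rest on the spread between libraries. The procedure was tested on simulated counts with 200 changed genes. These counts held no library that deviates over many genes at once, as WT replicate 2 does here, so they do not test that case. The alternatives were RLE, upper quartile or no scaling, other low-count filters, limma-voom 3.58.1, DESeq2 1.42.0, a block for the replicate number, a cell cycle score and each library left out in turn.

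The 9 genes and the gene lists were chosen with earlier results of these data known. Named were the 9 genes, Kit, the listed complement genes past the threshold (1 of them is not reported here), from each inducer and marker list up to 3 past the threshold with the largest change and the 2 most abundant, up to 6 neighbours with the largest change and the 5 genes most alike in pattern. C3ar1, Cr1l, Il1r1, Osmr, Rela, Ptprc, Fcer1a, the C1q genes and Cd55b were named after their values were seen. The planned comparison of protein sequences was not made.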

Additional observations from a re-analysis of the deposited data

How the results depend on the processing

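Of the 9 complement genes 7 were lower; the number was 7 with RLE or upper quartile scaling, 8 with library size only and in DESeq2, 6 without a low-count filter or with 1 CPM in 5 libraries (where 7 of the 9 were tested), 4 in limma-voom and 0 with the cell cycle score. With 1 library left out it was 2 to 9. No gene of the 9 was called higher in any fit. The other complement genes that were lower numbered 9, and 7 to 15 with 1 library left out. With the cell cycle score 2 were lower, neither of them among these 9. Higher ones numbered 1, or 2 without a low-count filter and 1 to 3 with 1 library left out. Over all genes, calls numbered 2334 lower and 1940 higher, 3599 and 983 with library size only (which shifts the median of all genes to -0.09), 464 and 670 with the cell cycle score, and 1721 to 3620 and 1286 to 3507 with 1 library left out. Neighbours within 100 kb numbered 15 lower and 3 higher, 1 and 0 with the cell cycle score, 10 to 19 and 2 to 5 with 1 library left out, and 1 higher with library size only.

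With the cell cycle score the log2 fold changes of C3 (0.85), C4b (1.04), Cfb (1.42), C1s1 (0.0672), Serping1 (0.27) and Clu (0.0877) changed sign; the cause was not tested. The replicate block lowered the calls to 3636 in all and to 6 of the 9 genes, C3 being lost (log2 fold change -1.35, adjusted p = 0.0929). Same-numbered libraries showed no consistent joint deviation (correlations -0.09, -0.01, 0.04, -0.07 and 0.31). WWv replicate 5 correlated at 0.469 with WT replicate 4 and at -0.539 with WT replicate 2. With 5 libraries per group and such effects of single libraries, the check does not show a pairing by number and cannot exclude one. The share of all counts held by each of the 9 genes, compared alone by a two-sided exact permutation test, gave p = 0.0159 to 0.183, not adjusted. Depth limits C2 and Cfb, with at most 51 and 34 counts per library.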

Other observations

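Of 81 genes within 100 kb of one of the 9, 40 were tested, of which 15 were lower (15.4% of all tested genes were) and 3 were higher in WWv (12.8% of all). Near copies and relatives in the complement lists, C4a, C1s2, C1rb and C1rl, made up 4 of the 15. Among the other 36 tested neighbours 11 were lower and 3 higher. The largest changes were those of Rtn4rl2, a Nogo receptor family gene 96480 bases from Serping1 (log2 fold change -1.89 ± 0.47, edgeR adjusted p = 0.013), Ypel4, also near Serping1 (-1.74 ± 0.39, adjusted p = 0.00882), and Prrt1, near C4b (-1.40 ± 0.41, adjusted p = 0.0273). The Prrt1 call was lost without WWv replicates 3 or 4 or WT replicates 1, 3 or 4 (adjusted p = 0.0576 to 0.0656). Gm15675, a noncoding gene 1836 bases from Cd55, was lower without overlap between the groups (0.849 ± 0.199 CPM in WWv and 1.67 ± 0.223 CPM in WT, SD, n = 5 each, log2 fold change -0.97 ± 0.18, adjusted p = 0.00391). Next to C3, 0 of 4 tested neighbours passed.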
